A study of Mus musculus with 4 samples.

Results

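The cytosolic ribosome builds every protein of the cell from mRNA, and its small and large subunits each hold ribosomal RNA and many proteins. The small subunit reads the mRNA, the large subunit joins the amino acids, and a stalk of acidic P proteins on the large subunit recruits the elongation factors. Ribosomal protein mRNAs are among the most abundant of growing fibroblasts. Most begin with a terminal oligopyrimidine tract, a C followed by further C and T bases, through which mTOR and the binding protein Larp1 set their translation as a group. Mouse ribosomal protein genes also have many processed pseudogenes, so that array probes for them often match other sequences.

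Cytosolic ribosomal protein genes were followed on expression arrays of 4 mouse cell lines, as 105 of 45037 non-control probe sets. A member was a probe set that the platform annotation gives to 1 gene named Rps or Rpl with a number, or to Rplp0, Rplp1, Rplp2 or Rpsa. The 105 probe sets covered 49 genes, 23 named for the small and 26 for the large subunit, and the rule reads gene symbols only. Another 110 probe sets were paired with a ribosomal protein gene and with further genes, and were not members. For 28 genes of the pattern, Rpl3, Rpl5, Rpl10, Rpl36a and Rplp1 among them, these were the probe sets on the array, so those genes are not described here.

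All 4 lines were LMTK-, mouse L fibroblasts that lack thymidine kinase, stably transfected with the expression vector pCI-neo. The vector lines, vector 1 and vector 2, carried pCI-neo without an insert. The MTf lines, MTf 4 and MTf 6, carried it with the mouse cDNA of melanotransferrin, an iron-binding protein of the cell membrane, and each was 1 clone. The series asks which transcripts differ with the expression of that cDNA. Each line was measured on 1 Affymetrix array, so n = 2 in each group. Whether vector 1 and vector 2 were clones is not told by the labels. The p-values thus reflect the spread among these 4 arrays, which may in part be technical.

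Meltf, the gene of the insert, was at a signal of 265 (vector 1), 274 (vector 2), 1519 (MTf 4) and 1885 (MTf 6), a log2 difference of 2.52 (SE 0.24) with an adjusted p = 0.0903 from limma. The arrays shared a trimmed mean signal of 1000.0, and their mean signals lay between 1633 and 1708. Of 10 fibroblast markers 8 were above the filter on dim probe sets, while Thy1 and Dcn were below it. Markers of macrophages passed it in 3 of 5 genes, of epithelium in 1 of 5, of endothelium in 1 of 4, of muscle in 2 of 4 and of melanocytes in 1 of 5. The highest signals in these lists were 762 for Csf1r, 572 for Krt8, 358 for Kdr, 908 for Des and 570 for Mitf. Epcam reached 405 in MTf 6. Ptprc, Pecam1 and Mlana, markers of blood, endothelial and melanocyte cells, had the lowest maxima of their lists, at 88.8, 34.2 and 29.5. Others below the filter reached more, such as Cdh5 with 287 in MTf 4, Tyr with 262 in MTf 6 and Pmel with 241 in vector 2.

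Pyrimidine runs were looked for at the start sites of the member genes. RefSeq promoter sequences (GRCm38.p6) were found for 43 of the 49 genes, with 51 start sites. In a window of 30 bases, 15 before and 15 from the start on, 19 of 51 sites (37.3%) had an unbroken run of at least 8 C or T bases, against 12.0% of 32851 sites of all genes. The motif CTTTC was in the window of 11 of 51 sites (21.6%), against 4.05% of all. On the opposite strand it was in 1 of 51 (1.96%), against 3.60% of all. Any match to CTTTC also counts toward a pyrimidine run, and annotated starts need not be the true first base. The windows below are on the strand of the gene and give the longest run in capitals. The first 3 show long runs in genes with bright probe sets and are not typical of them. Over the 51 sites the median longest run was 6, and that of Rps3a1, the brightest member, was 2. The other windows are those of the genes with a probe set at an unadjusted p under 0.05 between the groups (limma).
Rpl7a, chr2:26910792-26910821 (+): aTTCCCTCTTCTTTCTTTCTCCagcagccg
Rpl35, chr2:39005117-39005146 (-): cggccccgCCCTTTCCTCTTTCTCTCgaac
Rps10, chr17:27635230-27635259 (-): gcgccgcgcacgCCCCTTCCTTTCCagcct
Rps6, chr4:86857353-86857382 (-): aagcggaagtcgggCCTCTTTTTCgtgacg
Rpl39, chrX:37085208-37085237 (-): cctaagctccgcctctagcgaCTTCTTCTa
Rpl37a, chr1:72711245-72711274 (+): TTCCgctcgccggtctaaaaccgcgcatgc
Rpl22, chr4:152324421-152324450 (+): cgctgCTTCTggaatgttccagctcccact
The runs of Rpl7a, Rpl35, Rps10 and Rps6 hold 21, 18, 13 and 10 bases, those of Rpl39, Rpl22 and Rpl37a hold 8, 5 and 4. A second Rpl22 start in the table has a longest run of 4. These letters describe the annotated starts only, and RNA start sites were not measured.

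Member probe sets fell into bright ones and dim ones, with none in between. In 71 probe sets of 38 genes the mean signal of the 4 arrays lay between 14944 and 100537. In the remaining 34 it did not exceed 4308. The limit used below for bright, a mean signal of 10000, was chosen after the values were seen, and 3.21% of all non-control probe sets lie above it. Members made up 31 of the 100 brightest probe sets of the array. Signals of different probe sets depend on their probes, so they are not compared as amounts of RNA.

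A filter at the median log2 mean of all non-control probe sets, equal to a signal of 196, left 95 member probe sets of 46 genes to test. The 10 below it included every probe set of Rpl3l, a muscle paralogue of Rpl3, of Rps4l, a paralogue of Rps4x, and of Rps16. Rps4l was at 22.1 (vector 1), 10.5 (vector 2), 22.1 (MTf 4) and 16.8 (MTf 6). Rpl3l was at 101 (vector 1), 226 (vector 2), 210 (MTf 4) and 245 (MTf 6). Rps16, a small subunit protein, was at 45.3 (vector 1), 7.5 (vector 2), 28.1 (MTf 4) and 7.6 (MTf 6). These are signals of its only member probe set, which alone does not tell whether the gene is expressed.

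No member differed between MTf and vector lines past the threshold. Values were compared as log2(signal + 32), and every log2 difference and fold below is on that scale. The test was limma with Benjamini-Hochberg adjustment over all 22519 tested probe sets, at a threshold of 0.05. It called 0 of 95 member probe sets, against 0.00444% of all tested, and 4 members (probe sets of Rpl37a, Rpl39, Rpl22 and Rps6) had an unadjusted p under 0.05, against 1.90% of all. The lowest adjusted p of a member was 1.00. A two-sided exact permutation test of 2 against 2 lines cannot give a p below 0.333. Meltf itself did not pass, so changes far larger than those of most members could be missed. All group differences that follow are values that did not pass.

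Most bright members followed a common order over the lines, highest in MTf 4 and lowest in vector 1. Of 71 bright probe sets 58 were highest in MTf 4 and 53 were lowest in vector 1. Both held for 47 of them (66.2%), against 11.7% of 1294 bright probe sets with no ribosomal protein gene. Relative to the mean over all lines, the median bright member was at -0.13 (vector 1), -0.0018 (vector 2), 0.16 (MTf 4) and -0.031 (MTf 6). Rps3a1, a small subunit protein and the brightest member, was at 92857 (vector 1), 99328 (vector 2), 112349 (MTf 4) and 97613 (MTf 6). Rpsa, a small subunit protein also known as the laminin receptor, was at 76462, 85304, 98992 and 82426. Where 4 values stand without names, they are in the line order vector 1, vector 2, MTf 4 and MTf 6. In both genes MTf 6 lay below vector 2, so the groups overlapped.

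**Figure D1:**
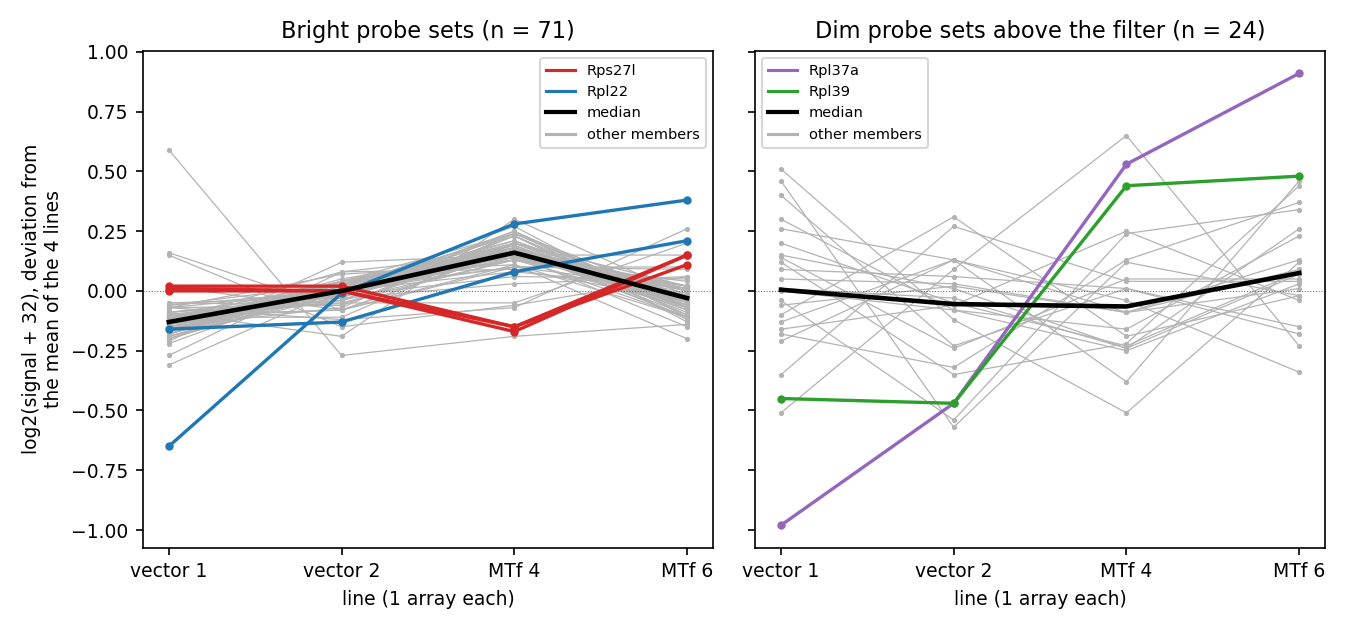
Deviation of each member probe set from its own mean over the 4 lines, on the log2(signal + 32) scale, for 71 bright and 24 dim probe sets above the filter; each thin line is 1 probe set and the black line their median. The bright median goes from -0.13 in vector 1 to 0.16 in MTf 4, and Rps27l dips in MTf 4. Of the 24 dim probe sets 10 were lowest and 2 highest in MTf 4, against 25.7% and 30.4% of all tested. In vector 1, 5 of the dim ones were lowest and 10 highest.

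Both stalk genes with a member probe set had this order, as did Rpl4, Rps19 and Rps4x. Rplp0, which anchors the stalk, was at 78214 (vector 1), 84369 (vector 2), 96381 (MTf 4) and 80227 (MTf 6). Rplp2, an acidic stalk protein, was at 75116, 75923, 90720 and 75400. Here vector 1, vector 2 and MTf 6 lay close together and MTf 4 stood above them. Rpl4, at the wall of the exit tunnel, was at 74441, 84822, 91701 and 80703, and Rps19, a small subunit protein mutated in Diamond-Blackfan anaemia, at 53327, 57477, 64416 and 58357. Rps4x, the X-linked small subunit protein, was at 76404, 86365, 96043 and 78723. Log2 differences of MTf minus vector were 0.11 for Rplp0, 0.13 for Rplp2, 0.11 for Rpl4, 0.15 for Rps19 and 0.10 for Rps4x.

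With each gene represented by its brightest probe set, 40 of 46 genes were higher in the mean of the MTf lines, with a median log2 difference of 0.13. Over all 10682 genes tested, 49.0% were higher and the median was 0.00. Small subunit genes were higher in 19 of 21 and large subunit genes in 21 of 25, with medians of 0.14 and 0.12. The median was 0.06 without vector 1, 0.21 without vector 2, 0.04 without MTf 4 and 0.23 without MTf 6. With quantile normalization, which gives the 4 arrays the same distribution of signals, it was 0.01 and 29 of 46 genes were higher. Under that scaling the median deviations of vector 1 and MTf 4 were 0.00 and 0.01.

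Other probe sets of the same brightness showed the same order. At a mean signal of 50000 or more, a limit also chosen after the values were seen, all 55 members were higher in the MTf mean, with a median difference of 0.14. Among 66 other probe sets that bright, with no ribosomal protein gene, 86.4% were higher, with a median of 0.10. Their median deviations were -0.11 (vector 1), 0.025 (vector 2), 0.13 (MTf 4) and -0.028 (MTf 6), against -0.14, 0.0033, 0.17 and -0.035 for the members. The order with MTf 4 on top and vector 1 at the bottom held for 53.0% of these probe sets and for 83.6% of the members. The 66 other probe sets included genes of the translation list below, such as Eef1a1, Tpt1, Pabpc1 and Npm1. They also included the fibroblast markers Vim and S100a4. Between 10000 and 50000 the order held for 1 of 16 members. In that range the members had a median difference of 0.02 and 1228 other probe sets one of 0.00. The mean signal of the whole array, which includes the members, had the order of the bright members. It was 1633 in vector 1, 1661 in MTf 6, 1668 in vector 2 and 1708 in MTf 4. Median signals of the arrays, at 214 (vector 1), 214 (vector 2), 211 (MTf 4) and 209 (MTf 6), did not have this order. The summed signal of all 10 fibroblast markers had the order of the bright members too. It was 202720 in vector 1, 218158 in MTf 6, 226871 in vector 2 and 272049 in MTf 4. Most of this sum came from Vim, S100a4, Fn1 and Col1a2. These genes and Col1a1 were highest in MTf 4 and lowest in vector 1. Pdgfrb and Dcn were highest in vector 1, and Col3a1, Pdgfra and Thy1 were not lowest in it. The part of the fibroblast markers, and of the order of the array means, in the members' values was not tested.

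**Figure D2:**
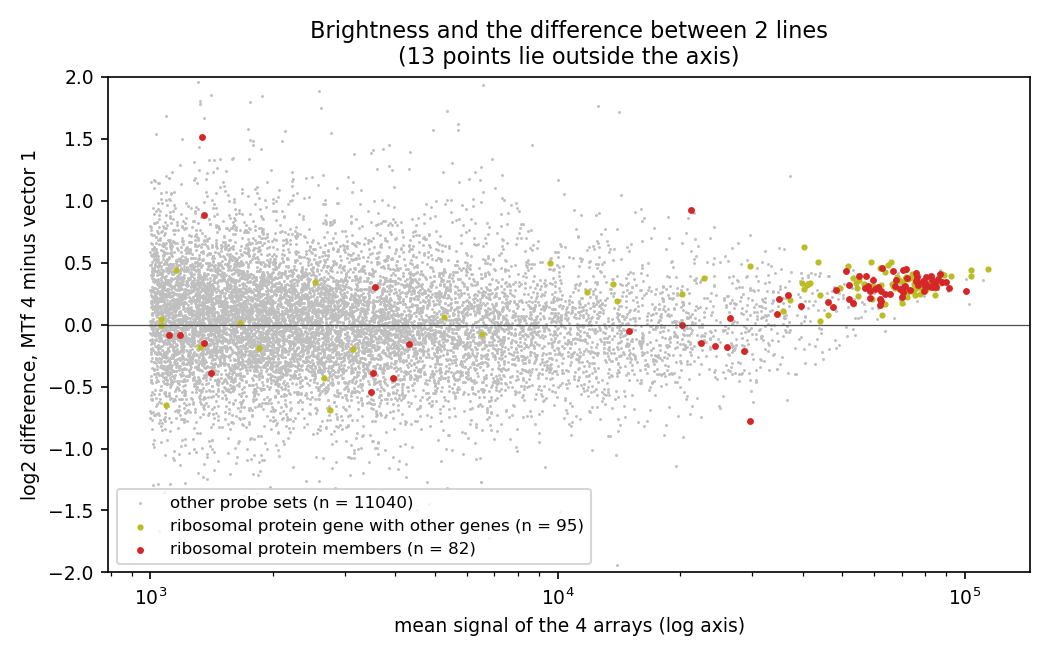
Difference between MTf 4 and vector 1 on the log2(signal + 32) scale against the mean signal of the 4 arrays (log axis, from 1000), for members, probe sets that pair a ribosomal protein gene with other genes, and all other tested probe sets; 13 of 11217 points lie outside the axis. Members above a signal of 50000 sit above 0 together with most other probe sets of that brightness, while fainter members lie on both sides of 0.

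The 81 bright probe sets that name a ribosomal protein gene together with others had the order of the members. Of these, 78 were highest in MTf 4 and 62 were lowest in vector 1, and their median difference was 0.13. Of the summed signal of all non-control probe sets, members held 5.58% (vector 1), 5.96% (vector 2), 6.53% (MTf 4) and 5.90% (MTf 6). The range in the MTf lines overlapped that in the vector lines.

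Both clones lay above both vector lines in 24 of 95 member probe sets, 19 of them bright, against 12.2% of all tested. For members this is 25.3%. At a mean signal of 50000 or more it was 29.1% of members and 24.2% of the other probe sets, and of the other bright probe sets as a whole 10.4%. Both clones lay below both vector lines in 3 of 95 (3.16%), all of them dim, against 13.6% of all tested.

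Rpl37a, a zinc-binding protein of the large subunit, had the largest difference of a member between the groups, in 1 of its 3 probe sets. That probe set, with suffix x, was at 578 (vector 1), 836 (vector 2), 1709 (MTf 4) and 2230 (MTf 6). Both clones were thus higher, and the groups did not overlap. Its log2 difference was 1.45 (SE 0.26, 95% interval 0.84 to 2.06), with an adjusted p = 1.00 from limma. One of its bright probe sets, also with suffix x, was at 54742, 58886, 70228 and 54083, a log2 difference of 0.12. The other, with suffix a, was at 55605, 61885, 68011 and 55458, a difference of 0.07. In both of these MTf 6 was the lowest line and MTf 4 the highest, so the groups overlapped.

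Rpl39, a small protein at the exit tunnel, was higher in both clones by its only member probe set. Signals were 936 in vector 1 and 921 in vector 2, against 1759 in MTf 4 and 1814 in MTf 6. Lines of the same group lay within 1.03-fold of each other. The log2 difference was 0.92 (SE 0.20, 95% interval 0.45 to 1.39), a 1.89-fold change that did not pass (limma, adjusted p = 1.00). It was between 0.90 and 0.94 with 1 line left out. The probe set given to Rpl39l, the paralogue known from testis, was bright at 32222, 36935, 37173 and 33945, and its difference was 0.04 (95% interval -0.33 to 0.42).

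Rpl22, an RNA-binding protein of the large subunit, was lowest in vector 1 by all 3 of its probe sets. The probe set with no suffix was at 13037 (vector 1), 20330 (vector 2), 24858 (MTf 4) and 26698 (MTf 6). Its log2 difference of 0.66 (SE 0.23) did not pass (limma, adjusted p = 1.00) and was 0.34 without vector 1. A bright probe set with suffix s, given to probe sets whose probes are shared by transcripts of different genes, was at 32878, 33519, 38736 and 42480. Both of these placed the clones above the vector lines. The dim one with suffix s was at 651, 1001, 1490 and 795, with MTf 6 below vector 2. Rpl22l1, the paralogue that can take the place of Rpl22, was at 49398, 57174, 60661 and 60174, a difference of 0.18.

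Rps6, the small subunit protein that S6 kinases phosphorylate, was higher in both clones by its tested probe set. Signals were 3098 (vector 1), 2794 (vector 2), 3835 (MTf 4) and 4557 (MTf 6), a log2 difference of 0.50 (SE 0.20) that did not pass (limma, adjusted p = 1.00). Its other probe set, below the filter, was at 68.9, 80.4, 47.8 and 51.9 and so ran the opposite way. The next genes by size of the difference among those with both clones above both vector lines were Rps18, Rps15, Rpl13a, Rps3, Rps10 and Rpl7a, with log2 differences between 0.20 and 0.58 by the probe set that parted the groups most. The 0.58 was that of a dim Rps18 probe set, at 216, 144, 269 and 292, and was 0.33 without vector 2. A bright Rps18 probe set, at 57695, 72012, 78840 and 78883, also parted the groups, by 0.29, while the brightest differed by 0.17 and did not.

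Most of these smaller differences depended on MTf 4. Without it Rps15 went from 0.28 to 0.12, Rpl13a from 0.22 to 0.13, Rps3 from 0.21 to 0.07, Rps10 from 0.21 to 0.08 and Rpl7a from 0.20 to 0.12. Without vector 1 Rpl7a was at 0.10. With quantile normalization Rps15 was at 0.16, Rpl13a at 0.09, Rps10 at 0.10 and Rpl7a at 0.07, and Rps3 was at 0.22. The Rps3 values are those of a dim probe set, at 747, 800, 1003 and 812. Its bright probe set, at 66460, 76956, 86886 and 74285, differed by 0.17, and there the groups overlapped.

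Rpl7l1, Rps27 and Rpl27a were the 3 genes with a tested probe set lower in both clones. Rpl7l1, a paralogue of Rpl7 with a role in ribosome assembly, had 3 tested probe sets, all with a lower MTf mean, at log2 differences of -0.38, -0.22 and -0.15. The first was at 591 (vector 1), 538 (vector 2), 474 (MTf 4) and 381 (MTf 6). The other two overlapped, since MTf 6 was higher than vector 2 in both. Rps27 was at 1258, 1234, 1188 and 1062 and Rpl27a at 1408, 1382, 1269 and 1367, differences of -0.15 and -0.08. Rpl7 itself differed by 0.11, 0.09 and 0.06.

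**Figure D3:**
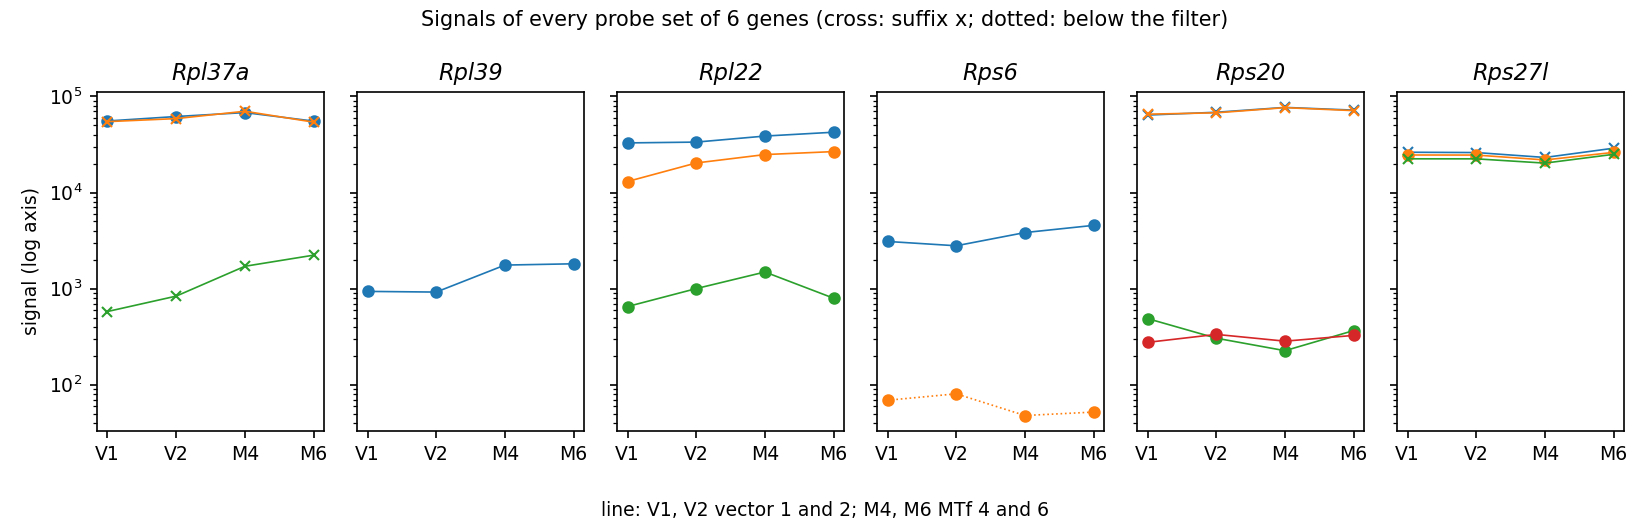
Signals (log axis) of every member probe set of Rpl37a, Rpl39, Rpl22, Rps6, Rps20 and Rps27l in the 4 lines; crosses are probe sets with suffix x, and a dotted line is below the filter. The dim Rpl37a probe set goes from 578 in vector 1 to 2230 in MTf 6, and the bright ones lie between 54083 and 70228.

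Probe sets of the same gene were compared next, since suffix x marks probe sets in which some probes match other sequences. Of the 105 members 40 had suffix x (38.1%), against 5.42% of all non-control probe sets, 28 had suffix a (probes for several transcripts of the same gene), 3 suffix s and 34 none. In 14 genes at least 1 tested probe set had suffix x and at least 1 did not. There the median of x minus the others, for the difference of MTf minus vector, was -0.01, with 7 genes above 0 and a range from -0.23 in Rps9 to 0.72 in Rpl37a. For the deviations of each line it was 0.016 (vector 1), -0.045 (vector 2), 0.021 (MTf 4) and -0.055 (MTf 6). Gaps of opposite sign cancel in these medians. With the sign left out, the median gap was 0.131 (vector 1), 0.0659 (vector 2), 0.101 (MTf 4) and 0.0699 (MTf 6).

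With bright probe sets alone, 10 genes could be compared, and the gap for MTf minus vector reached from -0.25 in Rps10 to 0.05 in Rpl37a. Its median size was 0.0351, against 0.0515 over the 14 genes. Rps28, a small subunit protein, differed by 0.15 and 0.14 with suffix x and by 0.13 without it. Rps7 differed by 0.13 with it and 0.16 without, and Rpl35 by 0.11 to 0.19 over its 5 bright probe sets, 4 of them with suffix x. Median differences of bright members were 0.12 for 35 with suffix x, 0.14 for 27 with suffix a and 0.16 for 7 with none. The 19 dim ones with no suffix had a median of 0.04 and reached from -0.39 to 0.92.

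Same-gene pairs were also counted. Among 99 pairs of tested members from 20 genes, 81.8% had the same sign of MTf minus vector, against 58.1% of 14536 pairs of other genes, most of them dim. For pairs of 2 bright probe sets the shares were 84.2% and 68.4%. They were 82.9% and 59.1% for a bright and a dim one, and 57.1% and 57.7% for 2 dim ones. Such shares rise when most probe sets differ in the same direction. In the MTf mean 84.2% of tested members and 91.5% of bright ones were higher. Of other tested probe sets 48.6% were higher, and of other bright ones 50.6%. The shares therefore do not tell whether probe sets of a gene match more closely in members. The median gap was 0.05 in 57 pairs of bright members, 0.14 in 35 pairs of a bright and a dim one and 0.23 in 7 dim pairs. Pairs of other genes had median gaps of 0.08, 0.14 and 0.18. The largest gap between 2 bright probe sets, 0.54, was in Rps10. The share of pairs with the same sign was 61.6% after quantile normalization, and 72.7% without vector 1, 73.7% without vector 2, 55.6% without MTf 4 and 74.7% without MTf 6.

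**Figure D4:**
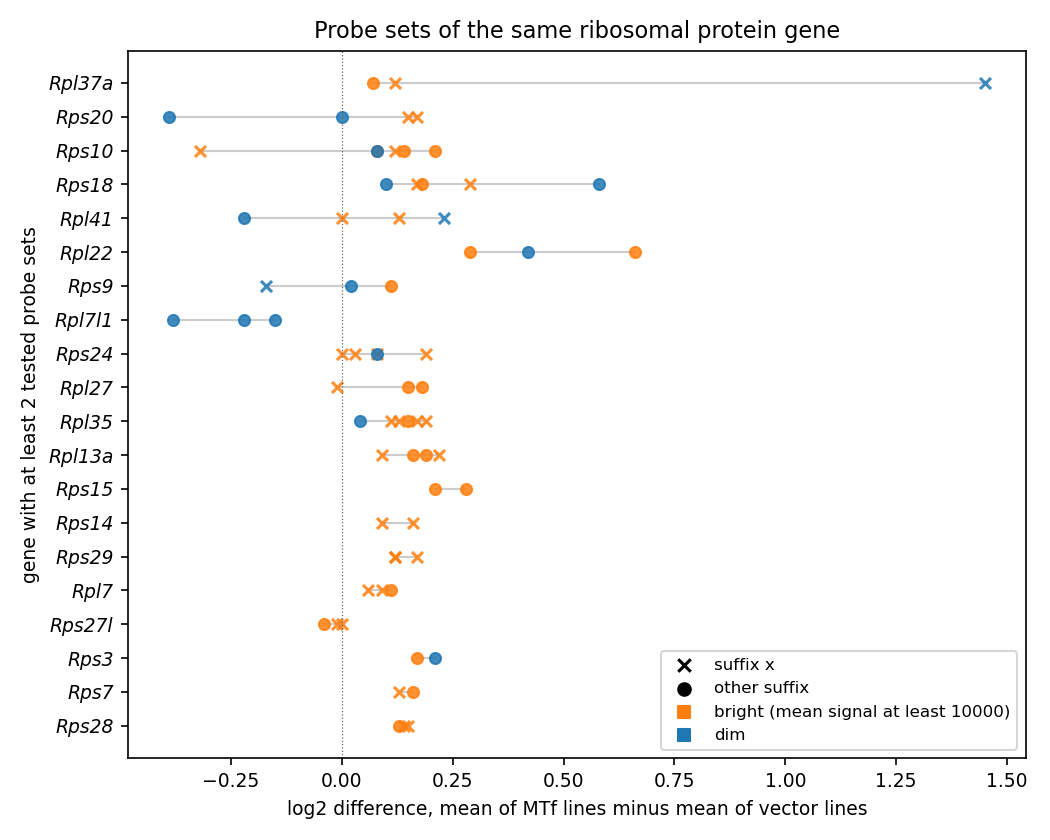
Log2 difference of MTf minus vector for each tested probe set of the 20 genes with at least 2, ordered by their range; crosses have suffix x, orange is bright and blue is dim. Bright probe sets of a gene lie close together, except in Rps10 and Rpl22, and the dim ones lie further apart, up to 1.45 in Rpl37a.

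Rps10, a small subunit protein with 6 probe sets, had one bright member at odds with the rest. This probe set, with suffix x, was at 43247 (vector 1), 23875 (vector 2), 25259 (MTf 4) and 26172 (MTf 6), so that vector 1 alone was high. The other 4 bright ones were lowest in vector 1, for example 68610, 72420, 83156 and 70100 for another with suffix x. Rps20, of the small subunit head, differed by 0.17 and 0.15 by its bright probe sets and by -0.39 and 0.00 by its dim ones. In Rpl41, the shortest ribosomal protein, the bright probe sets differed by 0.13 and 0.00 and the dim ones by 0.23 and -0.22. In Rps9 the values were 0.11, 0.02 and -0.17, in Rps24 they reached from 0.00 to 0.19 and in Rpl27 from -0.01 to 0.18.

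Rps27l, the paralogue of Rps27 known as a p53 target, had an order of its own. Its brightest probe set was at 26286 (vector 1), 26092 (vector 2), 23196 (MTf 4) and 28965 (MTf 6). The other two were at 24613, 24565, 21852 and 26207, and at 22456, 22438, 20259 and 25014. All 3 were lowest in MTf 4 and highest in MTf 6, with the vector lines within 1.01-fold of each other, and all 3 bright members lowest in MTf 4 belonged to this gene. Log2 differences between the groups were -0.01, -0.04 and 0.00. Of the 3 probe sets 2 have suffix x and 1 suffix a, and which probes they share was not examined.

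Gaps between the lines of a group were mostly found in dim members. Vector 2 and vector 1 were at least 1.5-fold apart in 7 of 95 members (7.37%), against 14.4% of all tested. MTf 6 and MTf 4 were so in 4 of 95 (4.21%), against 19.5%. By brightness, the vector lines were that far apart in 2.82% of bright members and 4.64% of other bright probe sets, and in 20.8% of dim members. Between the clones these shares were 0.0%, 9.97% and 16.7%. Of the 7, Rps10 (1.81-fold) and Rpl22 (1.56-fold) were bright. The largest gap between the vector lines was 2.04-fold in a dim Rps18 probe set, at 479 in vector 1 and 218 in vector 2, and dim probe sets of Rps9, Rps20 and Rps24 were 1.54-fold to 1.55-fold apart. Between the clones the gaps were 1.84-fold in Rpl22, 1.79-fold in Rps10, 1.58-fold in Rpl41 and 1.54-fold in Rps20, all dim. Rps25, of the small subunit, was at 3837 in MTf 4 and 5048 in MTf 6. Each line has 1 array, so these gaps have no replicate check.

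Bright members on chromosome 4 had nearly equal signals in MTf 4 and MTf 6. The 5 bright probe sets of Rpl11, Rpl22 and Rps20 had a median of MTf 6 minus MTf 4 of 0.00, between -0.10 and 0.13. The 66 bright members elsewhere had a median of -0.21, and 53 bright probe sets of other genes on chromosome 4 had one of 0.35. Rpl11, which with Rpl5 binds Mdm2, was at 48002 (vector 1), 48950 (vector 2), 55376 (MTf 4) and 55473 (MTf 6). The clones were nearly equal and above the vector lines. A value of -0.1 or more was reached by 4 of the 5 bright members on chromosome 4. It was also reached by 13 of the 66 members elsewhere (19.7%), from 8 genes. The limit has no upper end, and values elsewhere reached 0.34, so the count includes probe sets whose clones were not nearly equal. Values of -0.1 or more were thus not seen on chromosome 4 alone, and the difference was not tested.

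Bright members on chromosome 10 were compared between the vector lines. The 5 bright probe sets of Rpl41, Rps15 and Rps26 had a median of vector 2 minus vector 1 of 0.17, against 0.11 in bright members elsewhere, and 71 bright probe sets of other genes on chromosome 10 had one of -0.30. Rps26 was at 51371 (vector 1), 59134 (vector 2), 63753 (MTf 4) and 56894 (MTf 6). Rps15 was at 51225, 47563, 67081 and 53632 by one probe set and at 44438, 49858, 60016 and 49628 by the other, so it was lower in vector 2 by the first only.

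Other genes of translation were taken from listed groups. Of 21 translation factors and similar mRNAs 18 were higher in the MTf mean, with a median of 0.10 and line deviations of -0.08, 0.00, 0.12 and -0.03 in vector 1, vector 2, MTf 4 and MTf 6. Eef1a1, the elongation factor that carries tRNA, was at 87510, 102771, 113097 and 99193. Fau, whose product is cleaved into a ubiquitin-like protein and a small subunit protein, was at 40693, 47316, 53312 and 43058. Of 76 mitochondrial ribosomal protein genes 41 were higher, with a median of 0.03 and line deviations between -0.02 and 0.03.

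Ribosome biogenesis genes, which serve the making and processing of ribosomal RNA and the assembly of ribosomes, had another order over the lines. Of 24 measured genes 19 were lower and 5 higher in the MTf mean, and the median difference was -0.09, with line deviations of 0.19 (vector 1), -0.12 (vector 2), -0.22 (MTf 4) and 0.16 (MTf 6). Dkc1, the pseudouridine synthase dyskerin, was at 6771, 3945, 3144 and 6821. Nop58, of box C/D particles, was at 4622, 3142, 2300 and 4341. Both were high in vector 1 and MTf 6 and low in MTf 4. Of 13 regulators 6 were higher, with a median of -0.05. Myc, a transcription factor of ribosome genes, was at 7932, 8157, 9453 and 10123, and Larp1 at 3662, 3889, 3972 and 6510. In each of these lists limma called 0 genes, and 0 had an unadjusted p under 0.05.

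Control probe sets for the 18S ribosomal RNA, the RNA of the small subunit, were highest in MTf 6. The 3' probe set was at 778 (vector 1), 828 (vector 2), 845 (MTf 4) and 1405 (MTf 6). The middle one was at 514, 779, 695 and 994 and the 5' one at 555, 531, 488 and 885. None of the 3 had the order of the bright members. The 3' over 5' ratio of Actb, a measure of RNA quality, was 1.23, 1.22, 1.21 and 1.31, and that of Gapdh 0.683, 0.691, 0.681 and 0.669.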

How the data were processed

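Total RNA of 4 lines was hybridised to the Affymetrix mouse array, 1 array per line. The authors deposited a linear intensity for each probe set of an array. The submitters' processing notes name GCOS 1.3. No source read here states its settings, and its detection calls were left aside. Intensities were used as deposited, as log2(signal + 32). Genes came from the platform annotation and chromosomes from RefSeq's gene table of GRCm38.p6. The test was limma (version 3.58.1, run under R 4.3.3), with a moderated variance that follows the mean level, for MTf minus vector, over 22519 probe sets. It was tested on simulated data, in which most 2-fold changes were not called. Precision is limited by there being 1 array per line.

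Members and lists were chosen with earlier results of these data known. Named genes were the 10 per direction with the largest difference among groups that did not overlap (3 were found lower), the 10 with the widest range among their probe sets, the 6 that differed most within each group, listed paralogues and stalk genes, and members on chromosomes 4 and 10. For other lists up to 4 genes with the smallest p could be named. Alternatives covered offset, filter, scaling, variance model, the probe set that stands for a gene, and each array left out. Rps3a1, Rpl4, Rps28, Rps7, Rpl35, Eef1a1 and Dkc1 were chosen after their values were seen.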

Additional observations from a re-analysis of the deposited data

How the results depend on the processing

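The count of 0 members called by limma held under every alternative run: offsets, filters, scalings, variance models, probe sets without suffix x and each array left out (0 to 0). Of the 13 probe sets named for a group difference 0 were called wherever these were tested, and none changed direction. Under the stricter filter 10 of them were tested, and they were not run without suffix x. Quantile normalization moved the median over genes to 0.01, that of bright probe sets to 0.01, the share of same-sign pairs to 61.6%, and the median deviations of vector 1 and MTf 4 to 0.00 and 0.01. With 1 array left out, the median over genes lay between 0.04 and 0.23, that of bright probe sets between 0.04 and 0.23, the count of higher genes between 35 and 40, same-sign pairs between 55.6% and 74.7%, and suffix x minus the others between -0.03 and 0.04. A group is then 1 array, assumed to vary like the other group. Limits of 5000, 20000 and 40000 for bright, added after the data were seen, gave medians of 0.13, 0.13 and 0.14. They kept 71, 70 and 58 probe sets, against 71 with the limit used above. The limit of 5000 thus selected the same probe sets and could not change the median, and that of 20000 could hardly do so. Only the limit of 40000 left a clearly smaller set. No paired analysis was possible because the groups share no replicate numbers. Signals near the top of the scale may not be proportional to RNA, which was not tested.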
